A study of Mus musculus with 6 samples.

Results

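The proteasome genes of the mouse were examined in whole cortical tissue of young and aged C57BL/6 animals. They were taken by name, as the protein-coding genes whose symbol is Psm followed by a letter from a to g and a number, which gave 50 genes of the 38355 listed in the count files. Of these, 49 passed the filter on low counts and were tested, and Psmb11, the thymus-specific beta subunit, was listed at 0.0957 to 0.191 CPM (counts scaled to library size) and was not tested.

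The proteasome is the large protease that degrades ubiquitin-tagged proteins in every cell. Its 20S core is a barrel of alpha and beta rings in which Psmb5, Psmb6 and Psmb7 carry the constitutive proteolytic sites, and its 19S regulatory particle recognises, unfolds and feeds in the substrate by means of the ATPases of the Psmc family and the non-ATPase Psmd subunits. Interferon induces the alternative subunits Psmb8, Psmb9 and Psmb10, which replace the constitutive sites in the immunoproteasome, a form that is abundant in immune cells and whose peptides are loaded on MHC class I. Proteasome function in the ageing brain is studied because neurons rely on it to clear damaged proteins.

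RNA sequencing was performed on polyA RNA of cortical hemispheres from wild-type C57BL/6 mice aged 6 months (3 samples) or 16 months (3 samples), with no treatment or transgene in either group. Each sample came from a separate brain. The growth protocol among the labels names 3 months as the younger age, where all other labels name 6 months. The comparison asked how expression in the cortex changes between these ages. In tissue of mixed cells, fewer cells of a type and less RNA per cell cannot be told apart.

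The samples held 29797253 to 46519280 counts each. In the 16 month samples with numbers 1 and 2, deviations from the age mean followed GC content, with opposite signs, across all genes (Pearson r = 0.588 and -0.582, a description across genes, which are not independent replicates), against r between -0.13 and 0.16 in the other 4 samples. Markers of neurons did not separate the ages (summed level 6043 to 6284 CPM against 5712 to 6573 CPM), while summed markers of the thalamus, dentate gyrus and choroid plexus were 69.6%, 33.0% and 57.3% higher in the 16 month samples with no overlap of the ages. Sums of other markers were also apart, at 6.15% higher for astrocytes, 15.5% for oligodendrocyte precursors and 4.89% for interneurons. Those of endothelial cells (-3.63%) and of lymphocytes (-17.7%, mostly from Ptprc, which microglia also express) were lower. Against the sums of their lists, 2 markers were lower in edgeR. These were Gfap of the astrocytes (log2 fold change -0.47, adjusted p = 0.00332) and Pvalb of the interneurons (-1.21, adjusted p = 1.49e-05). The part of these in the results that follow was not tested.

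No proteasome gene passed the test between 6 and 16 months. In the quasi-likelihood test of edgeR, 0 of 49 members had an adjusted p under 0.05, where 286 of all 17120 genes tested (1.67%) did, and the lowest adjusted p of a member was 0.106, for Psmb8. At an unadjusted p under 0.05 stood 6 members (12.2%) against 17.4% of all genes, and DESeq2 likewise had 0 members past the threshold (all genes 3.0%) and 6 at an unadjusted p under 0.05. The values of the ages did not overlap in 11 members (22.4%), 7 lower (all genes 11.5%) and 4 higher (all genes 12.2%) at 16 months, a share close to the 23.7% of all genes in either direction.

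The measured differences were small. The members' log2 fold changes had a median size of 0.054, regardless of sign, against 0.1 over all genes tested, and 31 of 49 members lay within 0.1 of 0. The standard error of a member's log2 fold change had a median of 0.059, compared with 0.084 over all genes. For 41 of 49 members the 95% interval of the log2 fold change lay within 0.3 on either side of 0, which is a 1.23-fold difference. The data therefore bound the size of a change for most members, and do not show that any member was equal at both ages.

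**Figure D1:**
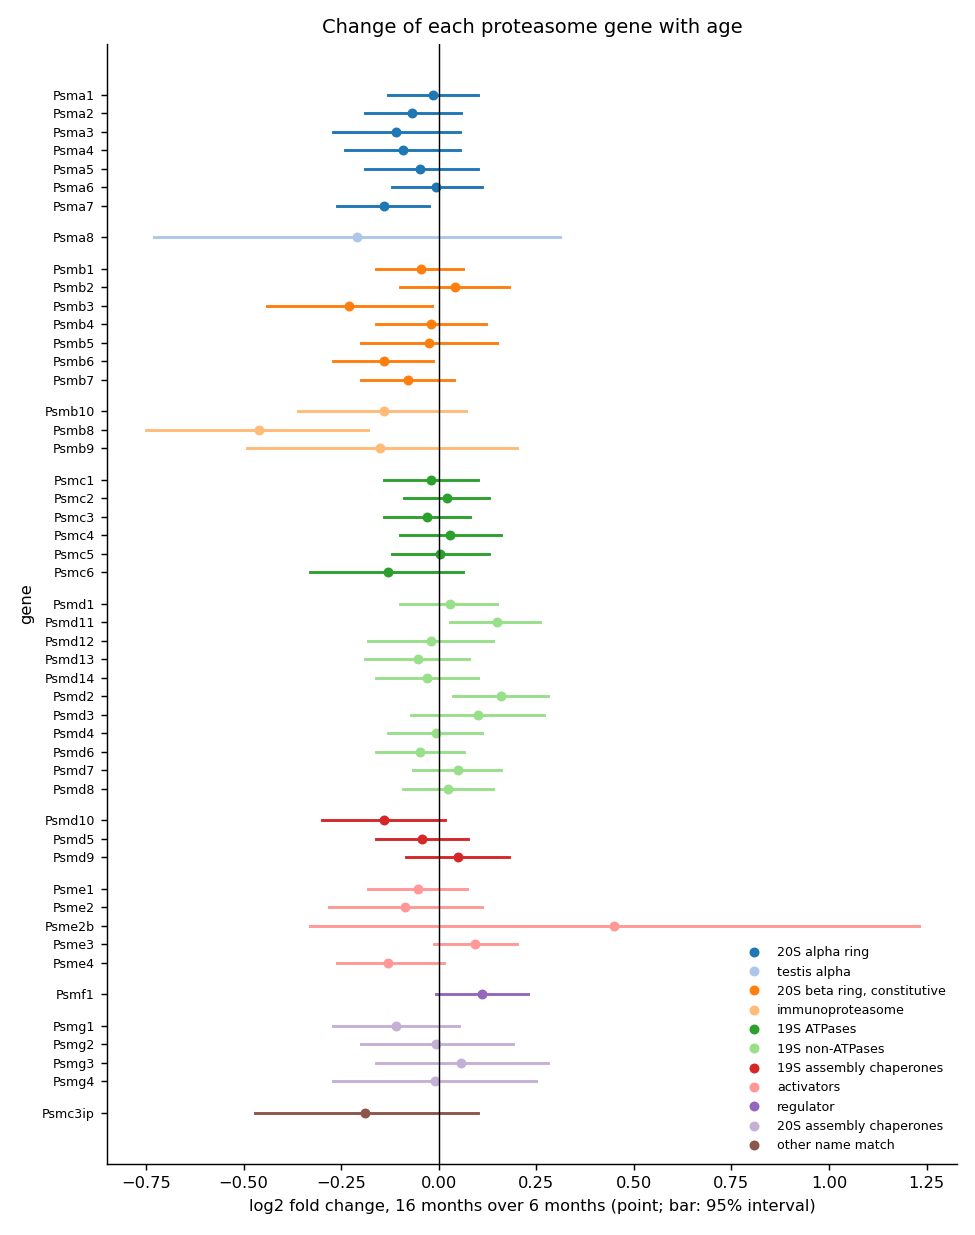
Log2 fold change of the 49 tested proteasome genes at 16 months relative to 6 months (x axis; points, with bars for the 95% interval of the edgeR fit), ordered and coloured by the part of the proteasome each gene encodes. Most points lie within 0.1 of 0; Psmb8 (-0.46) lies farthest to the left and the scarce Psme2b (0.45) farthest to the right, with the widest interval.

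The members together made up 0.3104% to 0.3121% of the counts at 6 months and 0.3006% to 0.3049% at 16 months, so that the shares of the ages did not overlap. After scaling with TMM factors, which adjust for the composition of each library, their summed level was 3081, 3100 and 3092 CPM at 6 months and 3071, 3081 and 3027 CPM at 16 months, a difference of -1.0% in which the ranges met. Whether the ages separated in the sum of all members thus depended on the scaling.

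Among the parts of the proteasome, most constitutive subunits of the 20S core were slightly lower at 16 months, while the subunits of the 19S particle were split about evenly. Of the 14 constitutive core genes, 13 had a log2 fold change below 0 and Psmb2 was above 0 (median -0.058), where 49.7% of all genes were below 0 (median 0.0014). Their summed level was 939, 932 and 936 CPM at 6 months and 906, 903 and 882 CPM at 16 months, a difference of -4.13% with no overlap of the ages. Of the 17 genes of the 19S base and lid, 8 were below and 9 above 0 (median 0.0046), with sums of 1685, 1708 and 1700 CPM against 1714, 1723 and 1703 CPM that did overlap. Within them the 11 non-ATPase genes summed to 991, 998 and 998 CPM at 6 months and 1027, 1028 and 1013 CPM at 16 months, a difference of 2.76% with no overlap, although 6 of the genes were above and 5 below 0 (median 0.025). That separation rested on Psmd2: without it the sums were 839, 854 and 853 CPM against 856, 867 and 854 CPM, which overlapped. The sum of the core kept the ages apart whichever of its 14 genes was left out. Leaving out single genes was added after the data were seen. Neither group contained a gene past the threshold, and no test was made over the groups.

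The lean of the core was lost when GC content and transcript length were handled together. When both were entered as offsets in the same fit, 6 core genes were below 0 and 8 above (median 0.0015). Either offset alone, alternatives added after the data were seen, left the median near that without offsets, with 10 below and 4 above for GC content (median -0.051) and 9 below and 5 above for length (median -0.062). Without the second 16 month sample 11 were below 0 (median -0.094). The 19S base and lid had a median of 0.0093 with both offsets, with 11 genes above 0.

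**Figure D2:**
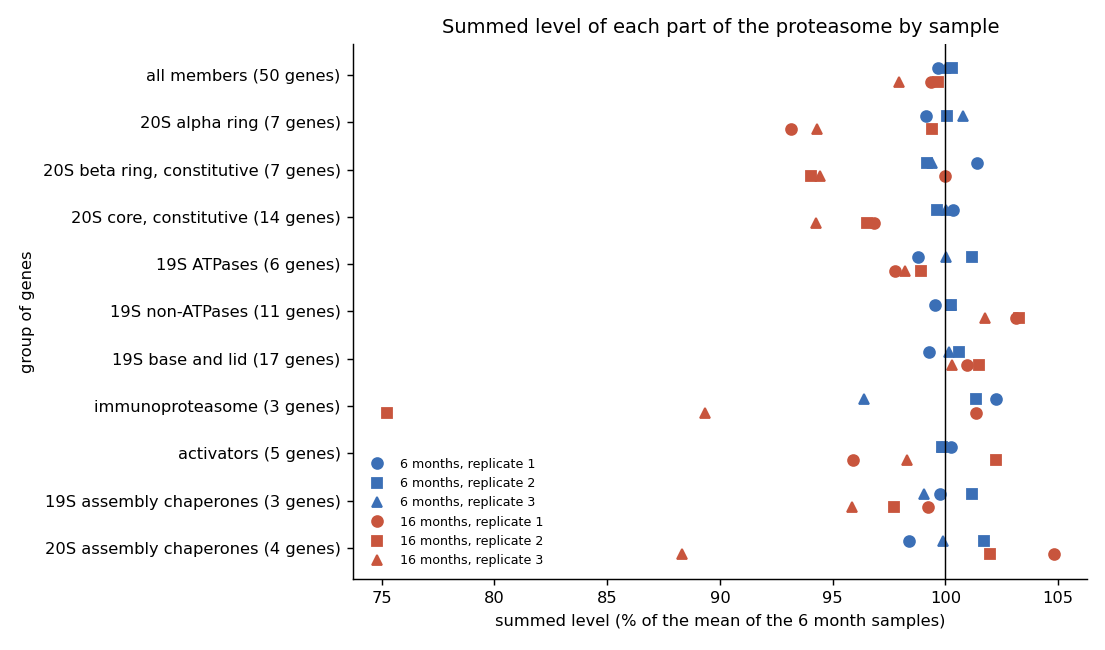
Summed level of each part of the proteasome (y axis) in every sample, as a percentage of the mean of the 6 month samples (x axis); blue symbols are 6 month samples and red symbols 16 month samples, with the symbol giving the replicate number. The 16 month samples lie left of all 6 month samples for the 20S core and right of them for the 19S non-ATPases, where the separation is lost without Psmd2, and spread most for the immunoproteasome genes.

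The alpha ring forms the gate of the core. All of its 7 genes had log2 fold changes below 0, from -0.14 for Psma7 to -0.0072 for Psma6. Psma7 was measured at 86.0, 82.8 and 84.7 CPM at 6 months and at 79.4, 76.7 and 74.0 CPM at 16 months. Every aged sample was thus below every young sample, by a log2 fold change of -0.14 (SE 0.052) that did not pass the threshold (adjusted p = 0.201). The alpha ring as a whole summed to 429, 433 and 436 CPM against 403, 430 and 408 CPM, with overlap. Psma8, the alpha subunit of the testis, was scarce, at 0.491, 0.467 and 0.453 CPM against 0.392, 0.415 and 0.41 CPM (log2 fold change -0.21, SE 0.23, adjusted p = 0.743).

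In the constitutive beta ring, the catalytic subunits Psmb5, Psmb6 and Psmb7 were measured first. Psmb5, with the chymotrypsin-like site, stood at 31.0, 28.9 and 27.3 CPM at 6 months and 31.5, 26.4 and 27.8 CPM at 16 months. Psmb6, with the caspase-like site, stood at 72.5, 70.5 and 70.6 CPM and at 68.8, 61.3 and 63.5 CPM. Psmb7, with the trypsin-like site, stood at 111, 116 and 112 CPM and at 104, 112 and 105 CPM. Only Psmb6 had every aged sample below every young sample, with a log2 fold change of -0.14 (SE 0.057, adjusted p = 0.237), whereas Psmb5 (-0.026) and Psmb7 (-0.079) overlapped between the ages, and both turned to above 0 with GC and length offsets. Psmb3, a structural subunit, had the most negative log2 fold change of the constitutive beta genes, at 19.8, 15.9 and 16.7 CPM against 15.9, 13.6 and 15.3 CPM. Its log2 fold change of -0.23 (SE 0.1) had an adjusted p of 0.249, and the lowest young and the highest aged sample were equal after rounding, the aged one being the lower.

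The immunoproteasome genes were far below their constitutive counterparts for Psmb8 and Psmb9 and nearer to them for Psmb10. In the GENCODE annotation of GRCm38, Psmb8 lies at chr17:34197721-34201454 on the plus strand and Psmb9 at chr17:34181987-34187764 on the minus strand, both in the MHC region. Psmb10 lies at chr8:105935735-105938444 on the minus strand. Psmb8 was measured at 3.43, 3.5 and 3.27 CPM at 6 months and at 2.9, 2.11 and 2.37 CPM at 16 months. All aged samples were below all young samples, and the log2 fold change of -0.46 (SE 0.13, 95% interval -0.75 to -0.18) corresponded to 0.726 of the young level. It had an unadjusted p of 0.0049 and an adjusted p of 0.106 in edgeR, so that it did not pass the threshold, and it was the member nearest to it.

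Psmb9 stood at 1.39, 1.4 and 1.36 CPM at 6 months and at 1.42, 1.12 and 1.2 CPM at 16 months. Psmb10 stood at 30.0, 29.6 and 28.2 CPM and at 30.2, 22.4 and 26.8 CPM. For both genes the first aged sample was at the level of the young ones and the other 2 were lower, so that the ages overlapped, with log2 fold changes of -0.15 (SE 0.15, adjusted p = 0.694) and -0.14 (SE 0.1, adjusted p = 0.485). The GC content of the longest transcript is 52.5% for Psmb8, 54.1% for Psmb9 and 56.5% for Psmb10. The first and second 16 month samples are those whose values ran with GC content. With GC and length offsets the log2 fold changes were -0.49, -0.17 and -0.11 (adjusted p = 0.0151, 0.554 and 0.204 in edgeR). The part of GC content in these values was not tested.

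**Figure D3:**
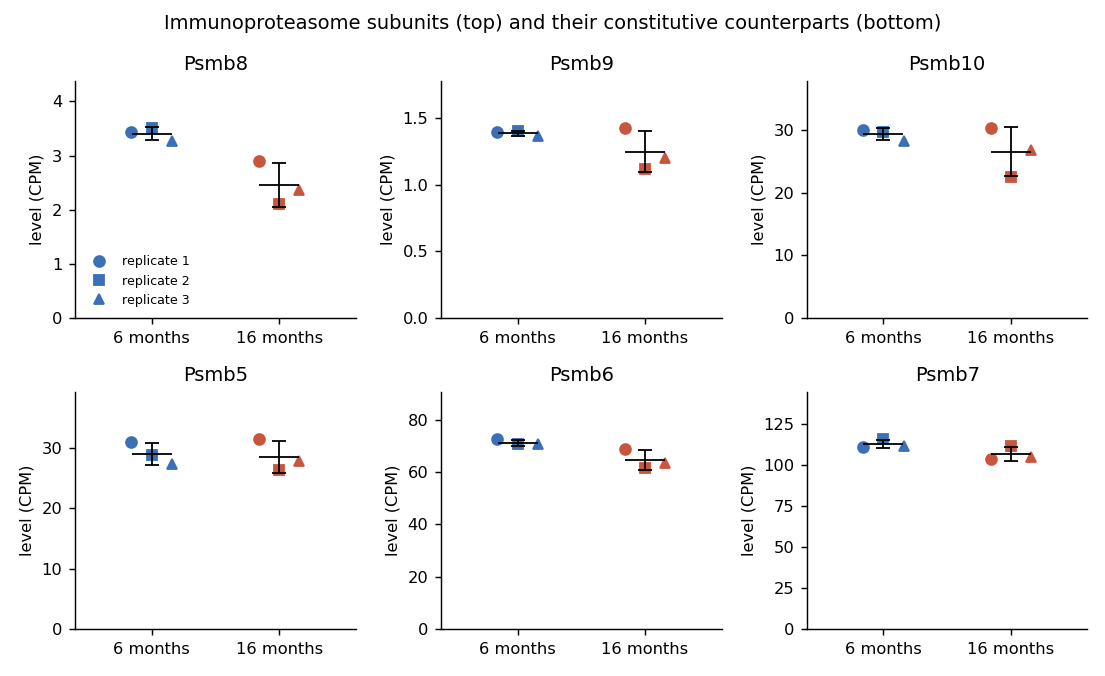
Level in CPM (y axes, from 0) of the immunoproteasome subunits Psmb8, Psmb9 and Psmb10 (top) and of the constitutive subunits whose places they take, Psmb5, Psmb6 and Psmb7 (bottom), in each sample; symbols give the replicate number, horizontal bars the mean of 3 samples and whiskers the SD. For Psmb8 and Psmb6 all 16 month samples lie below all 6 month samples, and for the other 4 genes the ages overlap.

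To compare within samples, each immunoproteasome subunit was set against its counterpart per exonic length. This ratio does not move with the scaling of a library, but it was not corrected for GC content. That content is 56.5% for Psmb10 and 40.8% for Psmb7, 52.5% for Psmb8 and 56.6% for Psmb5, and 54.1% for Psmb9 and 51.6% for Psmb6. The part of GC content in the ratios was not tested. The ratio of Psmb8 to Psmb5 was 2.95%, 3.22% and 3.18% at 6 months and 2.45%, 2.12% and 2.26% at 16 months. The ages were apart, by -0.45 on the log2 scale, with an exact permutation p of 0.1 (two-sided, n = 3 per age; adjusted over 4 ratios, 0.4), and 0.1 is the smallest p that this design allows. Psmb9 to Psmb6 was 0.978%, 1.02% and 0.985% against 1.05%, 0.932% and 0.967%, and Psmb10 to Psmb7 was 54.3%, 51.1% and 50.7% against 58.3%, 40.2% and 51.5%. These overlapped (log2 differences -0.013 and -0.074, exact permutation p = 0.8 and 0.9, n = 3 per age), and the sign of both turned without the second 16 month sample, to 0.025 and 0.075. The 3 immunoproteasome genes together stood at 18.0%, 18.1% and 17.8% of the 3 constitutive genes at 6 months and at 18.6%, 14.8% and 17.6% at 16 months (log2 difference -0.084, exact permutation p = 0.7, n = 3 per age). The level of these ratios rests on the length used: per coding length the Psmb8 to Psmb5 ratio averaged 11.2% at 6 months and 8.2% at 16 months. That ratio also rests on the counts of Psmb5, of which 88.4% of the transcript is near-identical to other genes. The part of these copies in its level was not tested.

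Microglia and lymphocytes are the cells of the brain in which the immunoproteasome is best known. The 8 microglial markers summed to 443 to 461 CPM at 6 months and 449 to 457 CPM at 16 months, with none at 0, 5 of 8 below 0 in log2 fold change and Aif1 past the threshold (-0.43, adjusted p = 0.0418). Csf1r of the same list stood the other way, at 104, 93.8 and 99.9 CPM against 126, 111 and 116 CPM with no overlap (0.25, adjusted p = 0.0926), and was called higher with GC and length offsets (0.21, adjusted p = 0.00118). Of the lymphocyte markers, Cd3e, Cd3g and Cd79a were each at or below 0.3 CPM in every sample, with Cd3g at 0 in 4 of 6 samples, and Ptprc, which microglia also express, stood at 6.51, 7.2 and 6.63 CPM against 5.31, 5.68 and 5.71 CPM. The part of these cells in the lower Psmb8 values was not tested.

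Features of the annotation bear on how far these counts can be read. Psmb8 shares 498 exonic bases (14.7% of its exonic length) with the antisense gene Gm20496, and Psmb9 shares 212 (5.8%) with Tap1 on the opposite strand, and since the strand setting of the counting is not given in the sources used here, reads of the partners cannot be told apart there. Psmb5 shares 88.4% of its transcript at 97% identity or more with Gm3375 and small RNA genes, Psmd2 86.3% with the pseudogene Gm5422, and Psma5 76.5% with Gm12989 and Gm8394, and HTSeq by default counts no read that aligns equally well to both copies.

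The regions before the starts of the catalytic genes are shown because Psmb5, Psmb6 and the interferon-induced subunits are textbook targets of different regulators. RefSeq windows (GRCm38.p6, from 250 bases before to 50 bases after the start) were matched for 42 of the 50 symbols, in 45 windows. The stretches below run 5′ to 3′ and lie in no annotated exon, and capitals mark a match to the antioxidant response element TGACNNNGC on either strand, which Psmb5 and Psmb6 hold and Psmb10 does not.
Psmb5 (chr14:54618023-54618245, minus strand): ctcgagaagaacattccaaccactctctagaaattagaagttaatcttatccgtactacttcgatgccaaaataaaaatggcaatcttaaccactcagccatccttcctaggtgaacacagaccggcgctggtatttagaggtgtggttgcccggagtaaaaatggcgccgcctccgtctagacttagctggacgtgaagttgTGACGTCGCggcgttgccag
Psmb6 (chr11:70525107-70525356, plus strand): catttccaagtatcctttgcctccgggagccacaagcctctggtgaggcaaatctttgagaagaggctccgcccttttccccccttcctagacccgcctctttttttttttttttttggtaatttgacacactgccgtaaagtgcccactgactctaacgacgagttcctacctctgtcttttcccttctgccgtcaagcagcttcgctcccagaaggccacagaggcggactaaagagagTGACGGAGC
Psmb10 (chr8:105938445-105938642, minus strand): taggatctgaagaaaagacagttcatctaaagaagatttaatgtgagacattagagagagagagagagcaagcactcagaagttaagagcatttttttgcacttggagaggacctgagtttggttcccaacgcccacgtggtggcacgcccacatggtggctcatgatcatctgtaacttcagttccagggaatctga

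The match in Psmb5 lay 47 to 39 bases before the start and that in Psmb6 ended at the last base before it. Over all member windows the antioxidant response element was found in 6 of 45 (13.3%), close to the 12.39% of all 32851 windows. An interferon response element, spelled as GAAA, 2 bases of any kind and GAAA again, was found in 5 member windows (11.1%, all windows 3.44%), those of Psmb3, Psmd4, Psmd9, Psme1 and Psmg4, and not in those of Psmb8, Psmb9 or Psmb10. The ETS motif CCGGAAGT was in 10 member windows (22.2%, all windows 3.89%), CCAAT in 15 (33.3%, all windows 37.41%) and an NF-kB motif, spelled as GGGA, any base and TTTCC, in none (all windows 0.41%). All motifs were sought on both strands, and a match is a description of the letters in the window.

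In the 19S particle, the 6 ATPases that ring the entry of the core had log2 fold changes between -0.13 and 0.03 (median -0.0072, 3 below and 3 above 0). The level of Psmc6, named after its values were seen, was 115, 124 and 122 CPM at 6 months and 94.9, 124 and 111 CPM at 16 months. Psmc6 has the lowest GC content of the members tested (37.0%), and its value in the first aged sample was the one that stood apart, with a log2 fold change of -0.13 (SE 0.087, adjusted p = 0.479) that was near 0 once GC content was an offset (-0.022).

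Among the 11 non-ATPases, log2 fold changes ran from -0.054 to 0.16, and Psmd2 and Psmd11 were the members with the highest values apart from Psme2b. Psmd2, a scaffold subunit of the base that binds ubiquitin shuttles, stood at 152, 144 and 145 CPM at 6 months and at 172, 161 and 159 CPM at 16 months. Psmd11, a lid subunit whose level has been tied to proteasome assembly, stood at 50.0, 48.4 and 51.3 CPM and at 54.2, 54.8 and 56.9 CPM. In both genes all aged samples were above all young samples, by log2 fold changes of 0.16 (SE 0.054, adjusted p = 0.181) and 0.15 (SE 0.053, adjusted p = 0.192). The deubiquitinase subunit Psmd14 (-0.029) and the ubiquitin receptor Psmd4 (-0.0079) differed little.

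The alternative caps of the core did not move together. Psme1 and Psme2 form the interferon-induced activator, and Psme1 stood at 22.5, 21.7 and 22.9 CPM against 21.8, 21.7 and 21.2 CPM. Psme2 stood at 8.53, 8.57 and 9.54 CPM against 8.42, 9.09 and 7.64 CPM. Both overlapped between the ages (log2 fold changes -0.054 and -0.086, adjusted p = 0.672 and 0.667). Psme2b, of which 94.9% of the transcript is near-identical to Psme2, held 7 to 14 counts in a sample, and its log2 fold change of 0.45 had an SE of 0.35.

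Further activator genes, named after their values were seen, differed in direction. Psme3, the nuclear activator, stood at 111, 108 and 107 CPM at 6 months and at 116, 115 and 117 CPM at 16 months. Psme4, which encodes the activator PA200, stood at 112, 115 and 113 CPM and at 96.5, 112 and 103 CPM. The aged samples were all above the young for Psme3 (log2 fold change 0.094, adjusted p = 0.345) and overlapped with them for Psme4 (-0.13, adjusted p = 0.332). Psmf1, the inhibitor PI31, was at 30.3, 31.0 and 31.1 CPM and at 33.7, 32.9 and 33.2 CPM, with all aged samples higher and an adjusted p of 0.309 (log2 fold change 0.11).

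The assembly chaperones of the core (Psmg1 to Psmg4) had log2 fold changes from -0.11 to 0.058 and those of the 19S base (Psmd5, Psmd9, Psmd10) from -0.14 to 0.049, with adjusted p above the threshold throughout. Psmc3ip, which the name rule takes although it encodes a recombination cofactor and not a subunit, stood at 2.13, 2.2 and 1.95 CPM against 1.96, 1.82 and 1.73 CPM (log2 fold change -0.19, adjusted p = 0.506).

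The spread between samples of 1 age was wider at 16 months. The SD of log2 CPM was higher in the aged group for 39 of 49 members (79.6%), close to the 75.5% among all genes, with a median of 0.0388 at 6 months and 0.0747 at 16 months. With GC and length offsets these medians were 0.0348 and 0.0712. The part of GC content in the spread was not tested. Across the 49 members, deviations from the mean of the aged samples ran with GC content at r = 0.615 in the first and -0.56 in the second 16 month sample, against -0.158 in the third (a description across genes). The fold changes themselves did not run with GC content (r = 0.0159).

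**Figure D4:**
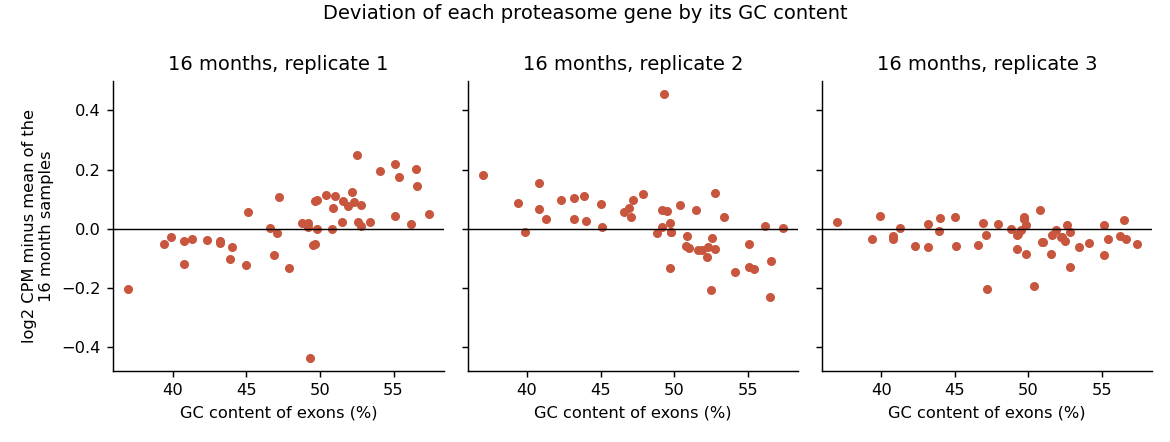
Deviation of each tested proteasome gene from the mean of the 16 month samples in log2 CPM (y axes) against its GC content in % (x axes), 1 panel for each 16 month sample and 1 point for each gene. GC content is that of the longest transcript of the gene, labelled as that of exons on the axes. The points rise from left to right in replicate 1 and decline in replicate 2, with little slope in replicate 3.

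With GC and length offsets, 6 of 49 members (12.2%) passed the threshold, where 14.2% of all genes did. Psmd2 (log2 fold change 0.13, adjusted p = 0.0197) and Psmd11 (0.22, adjusted p = 0.0265) were higher at 16 months (all genes 7.37%), and Psmb8 (-0.49, adjusted p = 0.0151), Psma7 (-0.18, adjusted p = 0.0189), Psme4 (-0.11, adjusted p = 0.0296) and Psmb6 (-0.13, adjusted p = 0.0427) were lower (all genes 6.8%). For Psmd11 the SE was larger with the offsets (0.061) than without them (0.053). The calls also depended on single aged samples. Without the first 16 month sample, Psmb8 (-0.6, adjusted p = 0.0155) and Psmb6 (-0.19, adjusted p = 0.0348) were past the threshold, with 5.73% of all genes. Without the second, Psmc6 (-0.23, adjusted p = 0.0441), Psme4 (-0.19, adjusted p = 0.0335) and Psma3 (-0.19, adjusted p = 0.0476) were, with 12.7% of all genes. No member was past the threshold in both of these fits, and all members called in them were lower. These were 2 of 49 without the first sample (all genes 2.79% lower) and 3 of 49 without the second (all genes 6.4% lower).

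**Figure D5:**
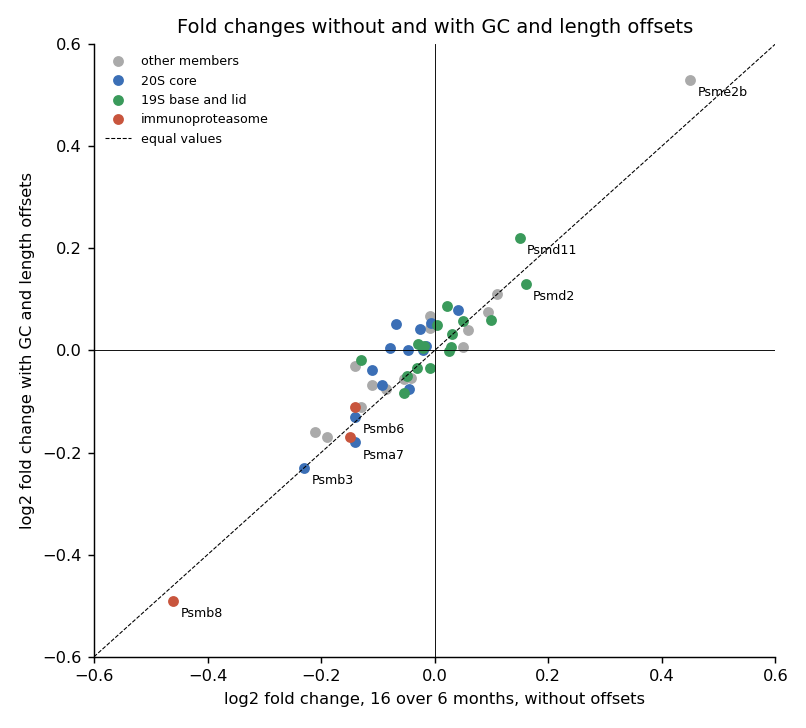
Log2 fold change at 16 months relative to 6 months of the 49 tested proteasome genes with GC and length offsets (y axis) against the value without offsets (x axis); colours mark the 20S core, the 19S base and lid and the immunoproteasome, and the dashed line marks equal values. Psmb8 lies lowest and Psmd2 and Psmd11 lie above 0 on both axes, while most core genes that lie just below 0 on the x axis lie near 0 on the y axis.

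Outside the name rule, 49 further genes of the ubiquitin and proteasome pathway were tested, and 0 of them passed the threshold, with 13 (26.5%, all genes 17.4%) at an unadjusted p under 0.05. Of 13 partners of the proteasome 5 were above and 8 below 0 in log2 fold change, of 6 ubiquitin and E1 genes 3 and 3, and of 7 transcription factors and their processing enzymes 4 and 3. Pomp, the chaperone that matures the core, was at 102, 106 and 106 CPM at 6 months and at 88.0, 97.3 and 90.6 CPM at 16 months (log2 fold change -0.18, adjusted p = 0.136). Of the 11 shuttle and extraction genes, 7 were above 0 (median 0.1), among them Vcp, the segregase that pulls ubiquitin-tagged proteins from complexes, at 38.9, 40.3 and 41.3 CPM against 46.0, 44.7 and 48.3 CPM (log2 fold change 0.21, adjusted p = 0.101). The ages did not overlap for either gene. With GC and length offsets in edgeR, Pomp was called lower (-0.21, adjusted p = 0.00269) and Vcp higher (0.17, adjusted p = 0.0157). These were among 5 pathway genes called higher (all genes 7.37%) and 7 called lower (all genes 6.8%) of the 49. Without the second 16 month sample Pomp (-0.23, adjusted p = 0.0155) and Vcp (0.23, adjusted p = 0.0216) were called (all genes 12.7%). Without the first, Vcp was (0.21, adjusted p = 0.0386, all genes 5.73%). Nfe2l1, the factor that induces proteasome genes when the protease is inhibited, differed little (0.021, adjusted p = 0.866). These genes and those of the next paragraph were named after their values were seen.

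All 12 genes of the interferon and antigen processing list had log2 fold changes below 0 (median -0.15, all genes 49.7% below 0), of which 6 had an unadjusted p under 0.05 (50.0%, all genes 8.88% lower) and 0 passed the threshold. H2-K1, an MHC class I heavy chain, was at 23.2, 23.5 and 24.4 CPM at 6 months and at 20.7, 20.3 and 18.9 CPM at 16 months (-0.25, adjusted p = 0.08). B2m, the light chain of MHC class I, was at 105, 111 and 116 CPM and at 72.7, 97.6 and 89.4 CPM (-0.36, adjusted p = 0.099), and was the pathway gene that DESeq2 called (-0.35, adjusted p = 0.0228, with 3.0% of all genes called). Tap1, the peptide transporter next to Psmb9 in the genome, was at 3.46, 2.8 and 3.1 CPM and at 2.9, 1.95 and 2.14 CPM (-0.43, adjusted p = 0.197). The aged samples were below the young ones throughout for H2-K1 and B2m and overlapped for Tap1. With GC and length offsets 6 of the 12 were called lower (50.0%, all genes 6.8%), namely Nlrc5, Tap1, Tap2, B2m, H2-K1 and H2-D1; without the first 16 month sample Tap1, Tap2, B2m, H2-K1 and H2-D1 were (all genes 2.79% lower), and without the second B2m and H2-K1 (all genes 6.4% lower).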

How the data were processed

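Whole cortical tissue of 6 C57BL/6 mice was sequenced by the authors. As the study describes, the authors ran fastq-mcf, STAR on mm10 and HTSeq, and what they deposited are raw, unnormalized counts per gene. The submitters' processing notes name CASAVA 1.8.2, STAR 2.3.0e and featureCounts 1.5.0-p1 instead, while the summary lines in the files are of the HTSeq form. The strand setting is not given in the sources used here. By the summary lines, 70.84% to 76.46% of the uniquely placed reads were on genes; the rest (no gene or more than 1) were left out of library sizes.

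Gene identifiers were matched to GENCODE M21 (GRCm38), 36602 of 38355. Counts were tested with edgeR 4.0.16 in R 4.3.3 (TMM factors, filterByExpr on age, quasi-likelihood test, Benjamini-Hochberg adjustment over 17120 genes, threshold 0.05, no covariates). Values in CPM were computed from the counts with TMM factors. Alternatives were DESeq2 1.42.0, other scalings and filters, GC and length offsets (20 bins), a replicate block and leaving out each sample. The fit was tested on simulated data. Ratios were compared with exact permutation tests (scipy 1.17.1). Copies were sought with blastn 2.17.0 at 97% identity over at least 100 bases. P-values rest on the spread between mice.

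The members and gene lists were chosen with earlier results of these data known. Values per sample are given for the immunoproteasome genes and their counterparts, the 3 members with the largest rise and the 3 with the largest fall in log2 fold change, Psme1, Psme2 and Psmc3ip; the other named genes were chosen after their values were seen. Of the 52 pathway symbols, 3 are older names of listed genes.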

Additional observations from a re-analysis of the deposited data

How the results depend on the processing

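The count of 0 proteasome genes past the threshold held under other size factors and upper quartile scaling, other filters on low counts, DESeq2, the robust and newer quasi-likelihood fits, the replicate block and length offsets alone. It was 6 with GC and length offsets, 7 with GC offsets alone (Psmb3 and Psmb10 called and Psme4 not, against both offsets; chosen after seeing the data) and 0 to 3 when each sample was left out. Deviations of same-numbered samples correlated weakly between the ages (0.18, 0.0958 and 0.0351), against -0.133 to 0.0379 for samples of unlike number. In 5 of 6 samples the closest one had their own number, and whether the numbers pair the samples was not tested. The replicate block called 0 members, 1 pathway gene (B2m) and 783 genes in all (4.57%). With GC and length offsets it called 7 members, 18 pathway genes and 3319 genes (19.4%). Of the pathway genes, 1 was called without a filter on low counts (B2m), 1 with DESeq2, 12 with both offsets, 13 with GC offsets alone and 0 to 10 with samples left out. Among all genes, the threshold was passed by 648 without the filter, 513 with DESeq2, 2425 with both offsets, 2595 with GC offsets alone and 48 to 2211 with samples left out. The members' median log2 fold change was 0.0015 with both offsets, 0.0019 with the block added, and -0.048 to -0.015 with samples left out, the lowest without the first or the second 16 month sample. The cause of these shifts was not tested.

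With samples left out, the log2 difference ranged from -0.51 to -0.4 for Psmb8 to Psmb5, -0.064 to 0.025 for Psmb9 to Psmb6 (0.0031 without the second 6 month sample), -0.19 to 0.075 for Psmb10 to Psmb7 and -0.15 to 0.0098 for the sums, where the value above 0 came without the second 16 month sample. Among 323 values under alternatives of the 14 genes named by rule and 4 of those named later (Psma3, Psma7, Psmc6 and Psme4), 290 kept direction and side of the threshold, 25 passed it and 8 changed sign, all uncalled: Psmb5 with both offsets (0.041), the block added (0.042), length offsets alone (0.071), and without the first 6 month (0.025) or second 16 month sample (0.028; range with samples left out -0.1 to 0.028), and Psmb7 with both offsets (0.0048), the block added (0.005) and GC offsets alone (0.00055). With 3 samples per age, changes below about the 95% intervals given could not be seen; Psma8, Psme2b and Psmb11 were limited by depth, 3 counts being 0.0645 to 0.1007 CPM.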

Other observations

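Pseudogenes of proteasome genes held few counts at both ages, and reads that align equally well to gene and copy would be counted on neither. Psmb5-ps held 0 counts in every 6 month sample and 2, 1 and 1 counts in the 16 month samples, Psmb7-ps2 held 0 to 2 counts in every sample, and Psmb6-ps held 0 in all. Gm9575, a processed pseudogene that shares 45.8% of the Psmc1 transcript, held 2, 6 and 4 counts at 6 months and 3, 1 and 2 counts at 16 months.

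The other transcription factors tied to proteasome expression did not pass the threshold either. Nfe2l2, the regulator of antioxidant genes, was at 21.9, 24.5 and 24.7 CPM at 6 months and at 25.4, 26.5 and 25.7 CPM at 16 months (log2 fold change 0.13, adjusted p = 0.35 in edgeR). Maff, a small partner of these factors, was at 1.62, 1.47 and 1.5 CPM and at 0.754, 1.28 and 0.995 CPM (-0.61, adjusted p = 0.148). In both genes the ages did not overlap, which holds for 23.7% of all genes tested.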
